A study of Rattus norvegicus with 2 samples.

Results

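The colony-stimulating factor axis and the nuclear receptor gene Pparg were followed across the cells of the rat lung, in 8 genes taken by symbol from the 42172 genes that the deposited matrices list. The genes were the ligand genes Csf1, Il34 and Csf3, the receptor genes Csf1r, Csf2ra, Csf2rb and Csf3r, and Pparg, and all 8 had unique molecular identifiers (UMIs, each standing for 1 captured RNA molecule) in both libraries. Lung cells came from rats kept under specific-pathogen-free conditions, and the lungs were digested with collagenase IV, papain and DNase I, depleted of red cells and dead cells, and profiled with 10x Chromium 3' chemistry. The explosion library came from rats labelled with the treatment explosion (sample D4) and the control library from rats labelled control (sample C3), while the treatment protocol reads gas explosion for both. The strain, number, sex and age of the animals and the time between exposure and collection are not given in the sources used here. Each group thus had 1 library, no difference between them has a replicate check, and no test was run. Values in parentheses after a level, a fold or a share are 95% intervals that cover counting error only, exact Poisson for levels and folds and exact Clopper-Pearson for shares.

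Colony-stimulating factors are secreted proteins that control the survival, proliferation and differentiation of myeloid cells. Csf1 and Il34 encode the ligands of the receptor tyrosine kinase made by Csf1r, on which most monocytes and tissue macrophages depend, while Csf3 and its receptor Csf3r drive neutrophil production. Csf2ra encodes the specific chain and Csf2rb the signalling chain of the receptor for granulocyte-macrophage colony-stimulating factor (GM-CSF), which in the mouse lung turns fetal monocytes into alveolar macrophages by inducing Pparg, a lipid-activated nuclear receptor that the mature cells need to clear surfactant.

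The libraries differed strongly in depth. The median barcode carried 538.5 UMIs in the explosion library (9017416 UMIs over 12642 barcodes) and 4917 UMIs in the control library (139486248 over 21117). The shallowest barcode carried 231 UMIs in the explosion library and 500 in the control library, and 85 barcode sequences occurred in both. After filters and removal of called doublets, 11845 explosion cells and 19231 control cells were kept. They formed 31 clusters, built without the 8 genes, 26 of them named by markers, and 21 of the 31 drew more than 80% of their cells from 1 library, so a cluster may stand for a library as much as for a cell type. All class names come from this clustering and stand for cells that resemble a type.

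The classes that matter most for these genes were macrophage-like cells, with 1971 cells in the explosion library and 8828 in the control library, and monocyte-like cells, with 3851 and 1286. Macrophage-like cells carried 5192 CPM of the 12 macrophage markers in the explosion library and 3320 CPM in the control library, where CPM counts a gene's UMIs for every 1000000 UMIs of the same population and library. Monocyte-like cells carried 8470 CPM of the 10 monocyte markers in the explosion library and 6728 CPM in the control library. Macrophage-like clusters were further split by leading genes, and monocyte-like clusters by whether Fcnb or Pou2f2 was raised more over clusters of other classes. A macrophage-like cluster led by the complement genes C1qa, C1qb and C1qc held 177 explosion and 124 control cells, against 1794 explosion and 8704 control cells in the other macrophage-like clusters. The monocyte-like population with Pou2f2 raised more, called Pou2f2-led, held 2898 explosion and 978 control cells. The other, called Fcnb-led, held 953 and 308, and its leading genes were Fcnb, then MHC class II genes, and further down Ccr2. The libraries filled different clusters of a class. Of the other macrophage-like cells, 1721 explosion cells lay in cluster 3, with Gpnmb, Lpl, Mrc1 and Spp1 among its leading genes. In the control library 5975 cells lay in cluster 0, also led by Mrc1, and 1875 in cluster 2. In the Pou2f2-led population, 2893 explosion cells lay in cluster 1 and 949 control cells in cluster 13. Treml4 was among the leading genes of both clusters, but Pou2f2 only among those of cluster 1. Neutrophil-like cells numbered 21 in the explosion library, too few to compare, and 303 in the control library.

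The promoters of 4 of the 8 genes, Csf1r, Csf2ra, Csf3r and Pparg, were matched by symbol in RefSeq for build GRCr8; Csf1, Il34, Csf2rb and Csf3 are named only. The promoters of the 3 receptor genes are shown because all 3 receptors had their highest levels in myeloid populations, and because each of them holds the letters GAGGAAG, or their reverse complement CTTCCTC, a form of the purine-rich core bound by the myeloid factor PU.1, encoded by Spi1. Each run is 300 bases, from 250 before to 50 after the annotated start, 5′ to 3′ on the strand of the gene, with the matched letters in capitals. The Csf1r promoter lies at chr18:56834129-56834428 on the plus strand, the Csf2ra promoter at chr14:118068-118367 on the minus strand and the Csf3r promoter at chr5:143582970-143583269 on the plus strand.
Csf1r: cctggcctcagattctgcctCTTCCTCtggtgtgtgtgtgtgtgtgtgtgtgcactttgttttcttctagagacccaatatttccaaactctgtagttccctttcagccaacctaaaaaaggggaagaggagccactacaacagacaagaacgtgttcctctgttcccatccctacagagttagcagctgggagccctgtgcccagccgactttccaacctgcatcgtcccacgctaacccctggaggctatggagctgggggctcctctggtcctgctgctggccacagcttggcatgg
Csf2ra: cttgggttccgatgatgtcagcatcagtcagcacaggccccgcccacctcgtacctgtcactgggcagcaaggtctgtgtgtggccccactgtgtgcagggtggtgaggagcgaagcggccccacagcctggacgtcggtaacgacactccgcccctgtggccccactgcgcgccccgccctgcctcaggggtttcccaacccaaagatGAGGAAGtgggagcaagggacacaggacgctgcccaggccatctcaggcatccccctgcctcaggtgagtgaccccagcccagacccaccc
Csf3r: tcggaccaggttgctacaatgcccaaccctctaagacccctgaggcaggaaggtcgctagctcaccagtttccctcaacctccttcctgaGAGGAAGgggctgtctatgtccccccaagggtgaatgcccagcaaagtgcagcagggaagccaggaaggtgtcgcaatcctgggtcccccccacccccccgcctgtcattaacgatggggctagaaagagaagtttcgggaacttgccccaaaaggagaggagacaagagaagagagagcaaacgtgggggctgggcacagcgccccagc
The match lay on the strand opposite to the gene in Csf1r, starting at position -230 from the gene's start, and on the gene's own strand in Csf2ra, at -41, and in Csf3r, at -160. Neither of the Pparg promoters in the table, at chr4:150096808-150097107 and chr4:150154522-150154821, held these 7 letters on either strand. The letters occurred in 4149 of 33469 promoters of this length (12.4%) and in 3658 of 27457 genes (13.3%), searched on both strands, and a match is a description of the sequence, not a binding site.

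Csf1 RNA came mainly from structural cells and, in the explosion library, also from NK-like cells. Over all kept cells Csf1 had 276 UMIs in the explosion library, a level of 33.0 CPM (29.2 to 37.2), and 554 UMIs in the control library, a level of 4.64 CPM (4.26 to 5.05). Mesothelial-like cells, of the kind that covers the lung, held 42.4% (36.5 to 48.5) of the Csf1 UMIs of the explosion library and 42.2% (38.1 to 46.5) of those of the control library. Fibroblast-like cells held 21.4% in the explosion library and 5.78% in the control library, beside 3.62% and 0.567% of the cells. In a suspension of cells, more cells of a type and more RNA per cell both raise such a share, and the share alone cannot tell them apart.

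Per cell population, the order of Csf1 levels in the explosion library was fibroblast-like, mesothelial-like and NK-like, with every other named class of at least 200 cells at 43.3 CPM or less. Fibroblast-like cells had 203 CPM of Csf1 (155 to 262) in the explosion library and 97.9 CPM (67.0 to 138) in the control library, from 59 and 32 UMIs. Mesothelial-like cells had 128 CPM (106 to 154) in the explosion library and 66.9 CPM (58.6 to 76.1) in the control library. In the explosion library the intervals of fibroblast-like and mesothelial-like cells did not overlap, by a narrow margin, while those of mesothelial-like and NK-like cells did. The mesothelial-like difference was 1.92-fold (1.52 to 2.41), or 0.94 on the log2 scale, beside a median of 0.62 over the 7206 genes with at least 20 UMIs in each library in that class. Of the mesothelial-like cells 952 explosion cells lay in cluster 11 and 1044 control cells in cluster 10, so the libraries filled different clusters. The log2 difference was 1.56 with called doublets kept and 1.28 with cells thinned to 500 UMIs, both past 2-fold. At least 2-fold higher levels in the explosion library were found for 28.1% of the 10326 genes compared there, and at least 2-fold lower ones for 12%, and among the 6 of the 8 genes with enough UMIs 0 were higher and 1, Csf2ra, was lower by that rule. Fibroblast markers in mesothelial-like cells summed to 15588 CPM in the explosion library, with 1 of 12 at 0, and to 9131 CPM in the control library, with 2 of 12 at 0; their part in the Csf1 difference was not tested.

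NK-like cells stood out for Csf1 in the explosion library. They had 31 UMIs there, or 94.4 CPM (64.2 to 134), and 10 UMIs in the control library, or 12.9 CPM (6.18 to 23.7), a ratio of 7.32-fold (3.50 to 16.7). In T-like cells of the explosion library Csf1 had 5 UMIs, or 8.10 CPM (2.63 to 18.9), and in B-like cells 1 UMI, or 3.59 CPM (0.0910 to 20.0), so the interval of the NK-like level did not overlap that of T-like or B-like cells. The share of NK-like cells with a Csf1 UMI was 5.01% in the explosion library and 2.17% in the control library, where the median cell had 574 and 1619.5 UMIs; B-like cells, at 320.5 and 1158.5 UMIs, had 0.130% and 0.122%. After thinning to 500 UMIs per cell it was 3.99% of 326 explosion cells and 0.217% of 460 control cells, while B-like cells had 0 of 68 and 0 of 820, counts that leave room for up to 4.41% and 0.366%. Among the genes compared in NK-like cells 22.3% were at least 2-fold higher in the explosion library and 8.35% at least 2-fold lower; Csf1 was 1 of the 2 members compared there and the 1 past that limit, the other being Csf2ra at 1.35-fold (0.682 to 2.58). Both libraries drew their NK-like cells from 1 cluster, but a finer clustering (Leiden resolution 2) split them by library, with 506 explosion and 47 control cells in a cluster and 13 and 414 in the other. The log2 ratio over both was 2.87 there, as it was before the split. Both together held nearly the same NK-like cells as before, so this value is no check on the split. Fibroblast markers in those cells summed to 454 CPM in the explosion library and 58.0 CPM in the control library, and mesothelial markers to 210.2 and 38.7 CPM; their part in the Csf1 level was not tested.

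In the control library neutrophil-like cells were also a source of Csf1. They had 56 UMIs, or 156 CPM (118 to 202), a level above the 97.9 CPM of control fibroblast-like cells but with overlapping intervals, and held 10.1% (7.73 to 12.9) of the control Csf1 UMIs in 303 cells. The 21 explosion cells of this class had 0 UMIs, which allows up to 287 CPM. Macrophage-like cells had 15 Csf1 UMIs in the explosion library, 6.82 CPM, and 76 in the control library, 1.38 CPM, beside 6.70 CPM and 1.91 CPM in B-like and T-like cells summed.

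Il34, whose product is the other ligand of Csf1r, was sparse and led by fibroblast-like cells in both libraries. It had 53 UMIs in the explosion library and 162 in the control library. Fibroblast-like cells had 16 and 18 of these, or 55.1 CPM (31.5 to 89.4) in the explosion library and 55.1 CPM (32.6 to 87.0) in the control library, a ratio of 1.00 (0.477 to 2.08). Mesothelial-like cells followed with 12.1 CPM (6.03 to 21.6) in the explosion library and 9.73 CPM (6.74 to 13.6) in the control library. In the control library the small mesothelial-like cluster 27, with 102 cells, had 21.1 CPM (11.8 to 34.8), while the large one, cluster 10, had 6.95 CPM (4.18 to 10.9). All other named classes of at least 200 cells lay between 0 and 9.53 CPM in the explosion library, where B-like and T-like cells together were at 7.82 CPM, and between 0 and 2.58 CPM in the control library, where those lymphoid cells were at 1.64 CPM. The genes whose levels over 24 pools of cells, 1 for each class and library with at least 50 cells, were most like those of Il34 were the collagen receptor gene Ddr2 with a Pearson r of 0.95, Dcn with 0.95, Svep1 with 0.94, Adamts5 with 0.93 and PCOLCE2 with 0.92, of which Dcn is among the fibroblast markers. For Csf1 the closest were Mettl9 (0.77), Boc (0.77), Glb1l (0.76), Hoxa5 (0.76) and Irs1 (0.75). These correlations, here and below, are descriptions over pools that share their library, depth and free RNA, chosen as the highest of 11784 genes.

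**Figure D1:**
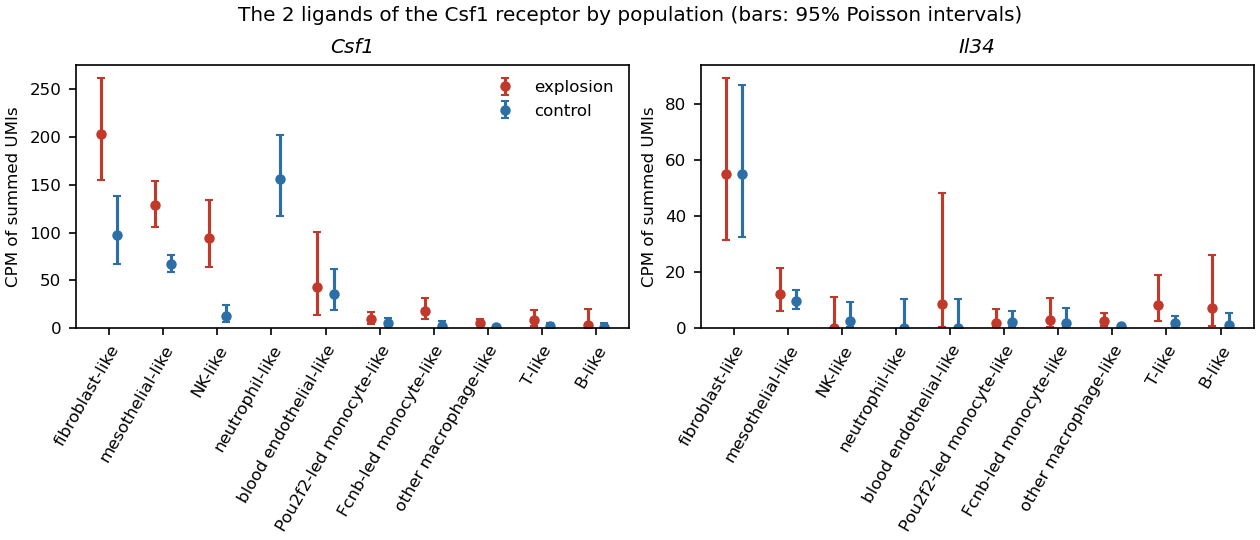
Levels of Csf1 and Il34 in CPM of summed UMIs by cell population, explosion library in red and control library in blue, with 95% Poisson intervals as bars; populations under 50 cells are left out. Csf1 was at 203 CPM in explosion and 97.9 CPM in control fibroblast-like cells and at 94.4 and 12.9 CPM in NK-like cells, while Il34 was at 55.1 CPM in fibroblast-like cells of both libraries.

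Csf3, the gene of granulocyte colony-stimulating factor, was close to undetectable. It had 3 UMIs in the explosion library, 1 each in a T-like cell, a ciliated-like cell and a cell of the unnamed cluster 16. The control library had 10 UMIs, all in 2 secretory-like airway cells of cluster 4, or 0.119% of the 1678 control cells of that cluster. Macrophage-like cells had 0 Csf3 UMIs in both libraries, which allows up to 1.36 CPM in the explosion library and 0.0544 CPM in the control library, where 3 counts are taken as the limit. No difference between the libraries was detectable for Csf3 at this depth.

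Csf1r had its highest levels in monocyte-like cells and in the C1q-led macrophage-like cluster. Over all kept cells it had 2887 UMIs in the explosion library and 6852 in the control library. Monocyte-like cells held 71.1% (69.4 to 72.7) of these in the explosion library and 26.4% (25.3 to 27.4) in the control library, and macrophage-like cells 19.5% (18.0 to 21.0) and 63.9% (62.7 to 65.0). The explosion share rests on the naming of cluster 1, which holds 1598 of the 2887 explosion UMIs; it was called monocyte-like from 5 of the 10 monocyte markers, and Nos2 and Mal lead it beside Pou2f2. Monocyte-like cells made up 32.5% of the kept explosion cells and 6.69% of the kept control cells, and macrophage-like cells 16.6% and 45.9%. Thinned to 500 UMIs per cell, the monocyte-like share of Csf1r UMIs was 60.4% in the explosion library and 56.5% in the control library, and the macrophage-like share 27.0% and 36.6%.

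**Figure D2:**
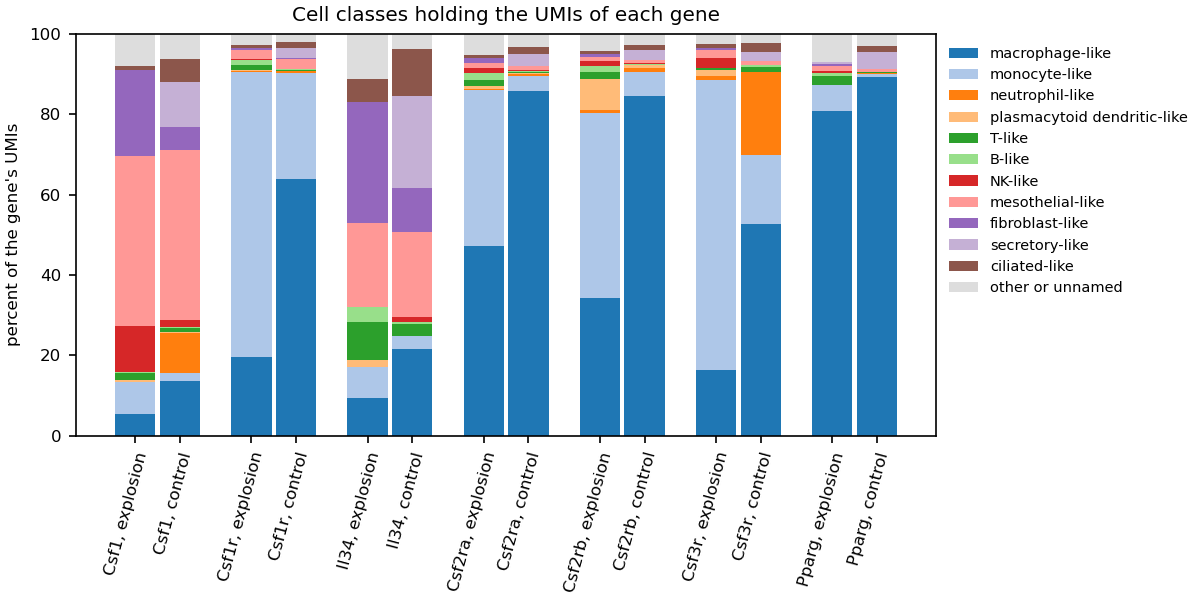
Share of each gene's UMIs, in percent, held by each cell class, with the explosion library left of the control library for each gene; Csf3 is left out because it had 3 and 10 UMIs. Csf1r UMIs lay mostly in monocyte-like cells in the explosion library (71.1%) and in macrophage-like cells in the control library (63.9%), while Pparg UMIs lay in macrophage-like cells in both (80.9% and 89.3%).

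The order of Csf1r levels was the same in both libraries. In the explosion library Pou2f2-led monocyte-like cells had 1505 CPM (1433 to 1581), C1q-led macrophage-like cells 1354 CPM (1130 to 1609), Fcnb-led monocyte-like cells 675 CPM (614 to 740) and the other macrophage-like cells 206 CPM (187 to 226). In the control library the same populations had 1086 CPM (1034 to 1141), 637 CPM (561 to 720), 212 CPM (185 to 242) and 75.4 CPM (73.1 to 77.7). Of these neighbours the intervals of Pou2f2-led and C1q-led cells overlapped in the explosion library, and no others did. B-like cells, which should lack Csf1r, were at 108 CPM (72.8 to 154) in the explosion library and 7.98 CPM (3.45 to 15.7) in the control library, and T-like cells at 61.6 and 9.04 CPM. The interval of the other macrophage-like cells did not overlap the B-like one in either library. Control neutrophil-like cells had 86.3 CPM (58.6 to 122), from 31 UMIs, and the 21 explosion cells of that class had 6 UMIs, or 574 CPM (211 to 1249).

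**Figure D3:**
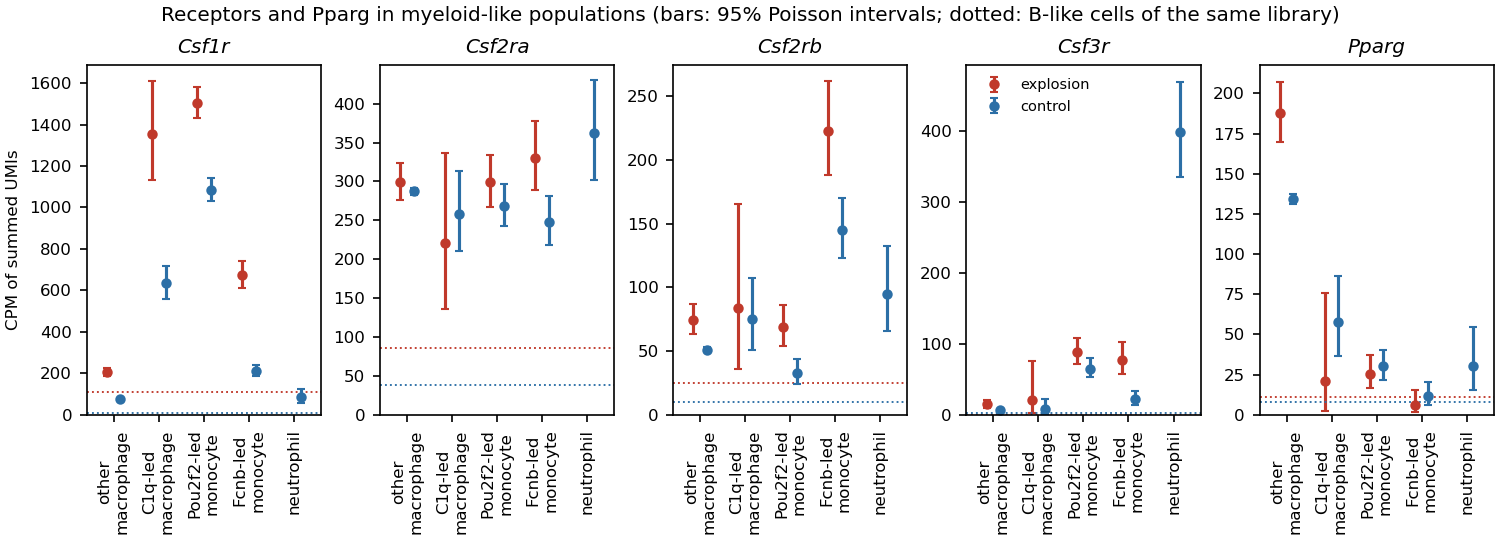
Levels of the 4 receptor genes and Pparg in CPM of summed UMIs in the myeloid-like populations, explosion library in red and control library in blue, with 95% Poisson intervals as bars and the B-like level of each library as a dotted line; neutrophil-like cells are shown for the control library, as the explosion library held 21. Csf1r was highest in Pou2f2-led monocyte-like cells (1505 CPM in the explosion library, 1086 CPM in the control library), Csf3r in control neutrophil-like cells (398 CPM) and Pparg in macrophage-like cells outside the C1q-led cluster (188 and 135 CPM).

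Within classes, Csf1r was higher in the explosion library. In macrophage-like cells it was at 256 CPM in the explosion library and 79.4 CPM in the control library, a 3.22-fold difference (2.94 to 3.51), or 1.69 on the log2 scale, against a median of 0.67 over all 13368 genes compared in the class. In that class 36.3% of genes were at least 2-fold higher in the explosion library and 7.97% at least 2-fold lower. Of the 8 genes 7 had enough UMIs, and 4 of the 7, Csf1r, Csf3r, Csf1 and Il34, were at least 2-fold higher and 0 were lower. Il34 had 5 UMIs in the explosion library, or 2.27 CPM, and 35 in the control library, or 0.635 CPM. Both levels were below the 7.82 and 1.64 CPM of B-like and T-like cells together. Csf1, at 6.82 and 1.38 CPM, was near or below the 6.70 and 1.91 CPM of those lymphoid cells. Outside the C1q-led cluster, where 35.2% of genes were higher and 8.23% lower by that rule and again 4 of 7 members were higher and 0 lower, the Csf1r difference was 2.73-fold (2.47 to 3.02), and within the C1q-led cluster, which both libraries filled, 2.13-fold (1.71 to 2.64). Within cluster 3, Csf1r was at 204 CPM (184 to 224) in 1721 explosion cells and 91.5 CPM (45.7 to 164) in 88 control cells, 2 intervals that did not overlap. Monocyte markers in macrophage-like cells summed to 237 CPM in the explosion library and 36.4 CPM in the control library, with 0 of 10 markers at 0 in either; their part in the Csf1r difference was not tested. Cells outside the myeloid classes also carried more Csf1r UMIs in the explosion library. In B-like cells the ratio was 13.5-fold (6.05 to 34.1), in T-like cells 6.81-fold (3.98 to 11.9) and in ciliated-like cells 6.30-fold (3.53 to 10.6). The background there was 25.9% of genes at least 2-fold higher and 10.9% lower in B-like cells, 33.7% and 7.82% in T-like cells and 46.6% and 9.32% in ciliated-like cells; 2 of 2 members compared were higher in B-like cells, 2 of 3 in T-like cells and 3 of 5 in ciliated-like cells, where 1, Pparg, was lower. With the level of B-like and T-like cells of the same library subtracted, the macrophage-like log2 difference was 1.35. That value is for the whole class, C1q-led cells included, and was not computed for the other macrophage-like cells alone. The subtracted levels were 75.9 CPM in the explosion library and 8.75 CPM in the control library. The other macrophage-like cells were at 206 and 75.4 CPM, so the 2.73-fold difference there is not corrected for this level.

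In macrophage-like and monocyte-like cells the shares of cells with a Csf1r UMI went the same way only once depth was made equal. The share of other macrophage-like cells with a Csf1r UMI was 20.1% in the explosion library and 34.8% in the control library, in cells with medians of 1155.5 and 5841.5 UMIs. In B-like cells the share was 3.76% and 0.854%. Thinned to 500 UMIs per cell, leaving out 103 explosion and 0 control cells, it was 10.5% and 3.76%, against 4.41% of 68 explosion and 0.366% of 820 control B-like cells.

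In monocyte-like cells the Csf1r difference was smaller and depended on which cells were counted. It was at 1185 CPM in the explosion library and 726 CPM in the control library, a 1.63-fold difference (1.53 to 1.74), or 0.71 on the log2 scale against a median of 0.44 over all 9212 genes compared, of which 25.3% were at least 2-fold higher and 9.6% at least 2-fold lower. Of the 8 genes 6 had enough UMIs in this class, and 1 of the 6, Csf1 with 22 and 10 UMIs, was at least 2-fold higher and 0 were lower. In Pou2f2-led cells the Csf1r difference was 1.39-fold (1.29 to 1.49) and in Fcnb-led cells 3.18-fold (2.70 to 3.75). At least 2-fold higher were 22.5% of genes and 1 of 5 members in Pou2f2-led cells and 29.9% of genes and 2 of 4 members in Fcnb-led cells, and at least 2-fold lower 11% of genes and 0 members in Pou2f2-led cells and 10.1% of genes and 0 members in Fcnb-led cells. With every cell thinned to 500 UMIs the class difference was 0.055 on the log2 scale. Thinning left 330 of 2898 Pou2f2-led explosion cells and 716 of 953 Fcnb-led ones, but all 978 and 308 control cells, so the mix of the class changed with it. Within each population the thinned share of cells with a Csf1r UMI was still higher in the explosion library, at 57.0% against 42.2% in Pou2f2-led cells and 25.3% against 10.4% in Fcnb-led cells. Unthinned the shares were 40.2% and 73.6% in Pou2f2-led cells and 33.3% and 43.5% in Fcnb-led cells.

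MHC class II genes were among the leading genes of the Fcnb-led population. A finer clustering (Leiden resolution 2) gave an Fcnb-led cluster without them, with 716 explosion and 141 control cells, and a separate class II-led cluster, dendritic-like by its markers, with 243 and 174. Csf1r was at 815 CPM (735 to 901) in the explosion library and 369 CPM (311 to 435) in the control library in that Fcnb-led cluster, and at 349.9 CPM (274 to 440) and 119.9 CPM (95.3 to 149) in the class II-led one. Csf1r was thus lower in the class II-led cluster than in the Fcnb-led one in each library and higher in the explosion library in both clusters. The fold between libraries in this finer Fcnb-led cluster was smaller than that given above for the Fcnb-led population. Class II-led cells outnumbered the finer Fcnb-led cells in the control library and not in the explosion library.

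The gene whose levels over the 24 pools were most like those of Csf1r was the C-type lectin gene Clec4a3 (r 0.91), followed by Agpat4 (0.90), Fgd4 (0.88), Tmcc1 (0.88) and Wdfy2 (0.88).

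Csf1r was also present in control mesothelial-like cells at more than the level of most other non-myeloid classes, and most strongly in a small cluster. It was at 64.8 CPM (49.3 to 83.6) in explosion and 48.6 CPM (41.6 to 56.5) in control mesothelial-like cells. Other non-myeloid classes of the control library with at least 100 cells lay between 4.61 CPM in secretory-like and 24.9 CPM (11.4 to 47.3) in blood endothelial-like cells. The blood endothelial-like interval overlapped the mesothelial-like one. Of the 170 control mesothelial-like UMIs, 61 lay in the 102 control cells of cluster 27, at 85.8 CPM (65.6 to 110). Cluster 10, with 1044 control cells, was at 39.9 CPM (32.7 to 48.1), and the 42 control cells of cluster 11 had 0 UMIs. Control mesothelial-like cells had 0.876 Csf1r UMIs per Csf2ra UMI (0.709 to 1.08), while control B-like, T-like, secretory-like and ciliated-like cells had 0.211 (0.0848 to 0.458), 0.387 (0.231 to 0.629), 0.316 (0.265 to 0.376) and 0.303 (0.240 to 0.380), and the mesothelial-like interval overlapped none of these. In the explosion library the mesothelial-like Csf1r level overlapped those of B-like and T-like cells. Macrophage markers summed to 142 CPM in explosion and 363 CPM in control mesothelial-like cells, with 3 and 2 of 12 at 0, against 413 and 202 CPM in B-like cells, and monocyte markers to 303 and 358 CPM, with 0 and 2 of 10 at 0; their part was not tested.

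Csf2ra, the chain that gives the GM-CSF receptor its specificity, differed less than Csf1r between the 4 macrophage-like and monocyte-like populations and between the libraries, though not all intervals overlapped. It had 1382 UMIs in the explosion library and 18412 in the control library. The 4 macrophage-like and monocyte-like populations lay between 220.4 and 331 CPM in the explosion library and between 248 and 287 CPM in the control library. In the explosion library all 4 intervals overlapped, from 330.5 CPM (288 to 377) in Fcnb-led monocyte-like cells over 299.6 CPM (277 to 324) in the other macrophage-like cells and 299.0 CPM (267 to 334) in Pou2f2-led cells to 220.4 CPM (136 to 337) in C1q-led cells. In the control library the intervals of Fcnb-led cells, at 248 CPM (219 to 281), and of the other macrophage-like cells, at 287 CPM (283 to 292), did not overlap. The control interval of Fcnb-led cells also lay below their explosion interval, without overlap. These Fcnb-led cells included the class II-led cells that the finer clustering set apart, in unlike proportion in the libraries. Control neutrophil-like cells had 362 CPM (302 to 430), above those other macrophage-like cells, with an interval that overlapped that of C1q-led cells, at 258 CPM (211 to 313). B-like cells were at 86.3 CPM in the explosion library and 37.9 CPM in the control library.

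The macrophage-like Csf2ra level was 296 CPM (274 to 320) in the explosion library and 287 CPM (283 to 291) in the control library, a ratio of 1.03 (0.953 to 1.12). On the log2 scale this is 0.05, and -0.62 relative to the median of the 9097 genes with at least 20 UMIs in each library in that class. The thinned share of other macrophage-like cells with a Csf2ra UMI was 13.7% in the explosion library and 13.4% in the control library, and 29.9% and 74.5% without thinning; in B-like cells it was 5.88% and 1.71% thinned. Monocyte-like cells had 311 CPM in the explosion library and 260.4 CPM in the control library, a ratio of 1.20 (1.06 to 1.34). Mesothelial-like cells had 19.8 CPM (11.7 to 31.2) in the explosion library and 55.5 CPM (48.0 to 63.9) in the control library, 2.81-fold lower (1.73 to 4.84). The genes most like Csf2ra over the pools were the retinoic acid receptor gene Rara (r 0.93), the complement receptor gene C5ar1 (0.93), Spi1 (0.93) and Blvra (0.92).

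The UMIs of Csf1r per UMI of Csf2ra show how these receptors were set against each other. UMIs of different genes are not compared as levels here, since capture may differ between genes, but their ratio can be compared between populations. It was 5.03 (4.46 to 5.70) in explosion and 4.04 (3.62 to 4.52) in control Pou2f2-led monocyte-like cells, 2.04 (1.73 to 2.41) and 0.855 (0.710 to 1.03) in Fcnb-led cells, 6.14 (3.85 to 10.3) and 2.47 (1.95 to 3.13) in C1q-led macrophage-like cells, and 0.687 (0.607 to 0.778) and 0.263 (0.254 to 0.272) in the other macrophage-like cells. This ratio does not depend on the total of a population, and it was higher in the explosion library in all 4 populations, though in Pou2f2-led cells the intervals overlapped slightly. The Fcnb-led population included the class II-led cells of the finer clustering, in unlike proportion in the 2 libraries. The Csf1r per Csf2ra ratio was not computed without those cells. It was also higher in the explosion library outside the myeloid classes, at 1.25 (0.706 to 2.23) in explosion and 0.211 in control B-like cells, 1.73 (0.996 to 3.07) and 0.387 in T-like cells, 3.28 (1.91 to 5.91) and 0.876 in mesothelial-like cells and 2.13 (0.869 to 5.69) and 0.303 in ciliated-like cells. In none of these 4 classes did the intervals of the libraries overlap, and as folds these differences were larger than those of the 4 myeloid populations.

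Csf2rb, the signalling chain that the GM-CSF receptor shares with the receptors for interleukin 3 and interleukin 5, had another order. It was highest in Fcnb-led monocyte-like cells, at 223 CPM (188 to 262) in the explosion library and 145 CPM (123 to 170) in the control library, and in plasmacytoid dendritic-like cells, at 198 CPM (140.2 to 272) in the 221 explosion cells and 146 CPM (95.2 to 214) in the 45 control cells. The intervals of these 2 populations overlapped in each library. Among the named classes control neutrophil-like cells followed with 94.7 CPM (65.6 to 132). The other macrophage-like cells had 74.7 CPM (63.4 to 87.3) in the explosion library and 51.1 CPM (49.2 to 53.0) in the control library, C1q-led cells 84.0 CPM (36.2 to 165) and 75.2 CPM (50.7 to 107), and Pou2f2-led monocyte-like cells 68.6 CPM (53.8 to 86.3) and 32.8 CPM (24.2 to 43.5). In the explosion library these 3 overlapped. B-like cells were at 25.2 CPM in the explosion library and 9.98 CPM in the control library.

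Plasmacytoid dendritic-like cells carried more Csf2rb relative to Csf2ra than Fcnb-led monocyte-like cells and the other macrophage-like cells. They had 3.45 Csf2rb UMIs per Csf2ra UMI (1.73 to 7.49) in the explosion library and 1.37 (0.729 to 2.62) in the control library, against 0.674 (0.544 to 0.834) and 0.584 (0.474 to 0.718) in Fcnb-led cells and 0.249 (0.208 to 0.297) and 0.178 (0.171 to 0.185) in the other macrophage-like cells. Their Csf2ra level, 57.4 CPM (28.6 to 103) in the explosion library and 106.5 CPM (64.1 to 166) in the control library, overlapped the B-like level in the explosion library and not in the control library. At the finer clustering Csf2rb was at 220.8 CPM in explosion and 174 CPM in control Fcnb-led cells and at 220.5 and 126 CPM in the class II-led cluster, so both shared the high level.

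Between libraries the Csf2rb difference was 1.46-fold (1.24 to 1.71) in macrophage-like and 1.62-fold (1.33 to 1.97) in monocyte-like cells, 0.55 and 0.70 on the log2 scale, beside class medians of 0.67 and 0.44. With each cell thinned to 500 UMIs the monocyte-like log2 difference was 1.77, and 8.99% of 1046 explosion cells and 2.72% of 1286 control cells held a UMI, against 1.47% and 0.488% of B-like cells. The thinned explosion cells were mostly Fcnb-led, as given above, so the class values mix level with the changed mix of populations. Within Fcnb-led cells the thinned share was 10.9% in the explosion library and 4.87% in the control library. Within Pou2f2-led cells it was 4.85% and 2.04%, with overlapping intervals. In Pou2f2-led cells alone the unthinned difference was 2.09-fold (1.43 to 3.07). The genes most like Csf2rb over the pools were the tyrosine kinase gene Fes (r 0.89), Il17ra (0.89), Pik3r6 (0.89), Nfam1 (0.88) and Lilrb3l (0.88), and among the members Csf2rb and Csf2ra had the highest correlation, with an r of 0.80.

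Csf3r, the granulocyte colony-stimulating factor receptor, marked neutrophil-like cells of the control library. They had 143 UMIs, or 398 CPM (336 to 469), and 35.6% of the 303 cells held a UMI, or 19.8% after thinning, against 0.366% and, thinned, 0 of 820 control B-like cells. The median neutrophil-like cell there had 772 UMIs. They held 20.8% (17.8 to 24.0) of the control Csf3r UMIs, while macrophage-like cells, at a far lower level but 45.9% of the cells, held 52.6%. The 21 explosion neutrophil-like cells had 2 UMIs, or 191 CPM (23.2 to 691). Their 12 neutrophil markers summed to 12238 CPM, against 73357 CPM in the control cells, with 5 and 1 of 12 at 0, and their 10 monocyte markers to 2964 CPM, against 276 CPM, with 4 and 1 of 10 at 0. In the explosion library monocyte-like cells held 72.3% (65.6 to 78.3) of the Csf3r UMIs, and in the control library 17.2% (14.4 to 20.2).

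Among monocyte-like cells Csf3r was at 88.4 CPM (71.4 to 108) in explosion and 65.0 CPM (52.6 to 79.4) in control Pou2f2-led cells, a ratio of 1.36 (1.01 to 1.83). In Fcnb-led cells it was at 77.8 CPM (58.1 to 102) in the explosion library and 22.4 CPM (14.2 to 33.6) in the control library, a ratio of 3.47 (2.09 to 5.95). At the finer clustering the Fcnb-led cluster had 107 CPM in the explosion library and 59.8 CPM in the control library, a ratio of 1.79 (1.07 to 3.08), while the class II-led cluster had 4 UMIs and 0 UMIs. The Fcnb-led ratio was thus smaller once the class II-led cells were set apart. Macrophage-like cells had 15.01 CPM (10.3 to 21.1) in the explosion library and 6.57 CPM (5.91 to 7.28) in the control library, 2.28-fold (1.55 to 3.27), and T-like and B-like cells together 1.12 and 3.01 CPM. The genes most like Csf3r over the pools were the C-type lectin gene Clec4e (r 0.92), Ceacam4 (0.91), Slc16a3 (0.90), the interleukin gene Il1b (0.90) and Clec4a2 (0.89).

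Pparg was a gene of the macrophage-like cells outside the C1q-led cluster. It had 491 UMIs in the explosion library and 8264 in the control library, of which macrophage-like cells held 80.9% (77.1 to 84.2) and 89.3% (88.7 to 90.0). The other macrophage-like cells had 188 CPM (170 to 207) in the explosion library and 135 CPM (131 to 138) in the control library. C1q-led cells had 2 UMIs in the explosion library, or 21.0 CPM (2.54 to 75.8), and 23 UMIs in the control library, or 57.7 CPM (36.6 to 86.5). Pou2f2-led monocyte-like cells had 25.4 CPM (16.7 to 36.9) in the explosion library and 30.1 CPM (21.9 to 40.4) in the control library, and Fcnb-led cells 5.98 CPM (1.63 to 15.3) and 11.7 CPM (6.04 to 20.4). B-like cells were at 10.8 CPM (2.22 to 31.5) in the explosion library and 7.98 CPM (3.45 to 15.7) in the control library, so the explosion levels of C1q-led and both monocyte-like populations overlapped the B-like level, as did the control level of Fcnb-led cells.

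The C1q-led cluster and the other macrophage-like cells differed in their balance of Csf1r and Pparg. Pparg UMIs per Csf1r UMI were 0.912 (0.794 to 1.05) in explosion and 1.79 (1.72 to 1.85) in control cells of the other macrophage-like clusters, against 0.0155 (0.00186 to 0.0572) and 0.0906 (0.0564 to 0.139) in the C1q-led cluster. In Pou2f2-led monocyte-like cells the ratio was 0.0169 (0.0111 to 0.0246) in the explosion library and 0.0277 (0.0201 to 0.0374) in the control library. C1q-led cells were thus nearer to monocyte-like cells than to the other macrophage-like cells by this ratio in both libraries.

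The macrophage-like clusters that the libraries filled separately all carried Pparg. Cluster 3, with Gpnmb, Mrc1 and Spp1 among its leading genes, had 189 CPM (170.2 to 209) in 1721 explosion cells and 149.7 CPM (88.7 to 237) in 88 control cells. The control clusters 17, led by Cxcl2, 0, led by Mrc1, 26 and 2, led by Fabp4 and Trem2, had 146, 143, 119.7 and 115 CPM. Over all macrophage-like cells the Pparg difference between libraries was 1.35-fold (1.22 to 1.49), 0.43 on the log2 scale, below the median of 0.67 over the genes of the class. With each cell given equal weight it was 0.25, and relative to the median gene -0.24. The share of other macrophage-like cells with a Pparg UMI was 19.1% in the explosion library and 51.6% in the control library, and 9.05% and 6.73% after thinning, against 0 of 68 and 0.366% of 820 B-like cells. In monocyte-like cells Pparg was at 17.9 CPM in the explosion library and 22.5 CPM in the control library, a ratio of 0.795 (0.496 to 1.26). The genes most like Pparg over the pools were Edil3 (r 0.91), the liver X receptor gene Nr1h3 (0.91), Aldh4a1 (0.905), Pla2g2d (0.89) and Dmrtc2 (0.89).

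**Figure D4:**
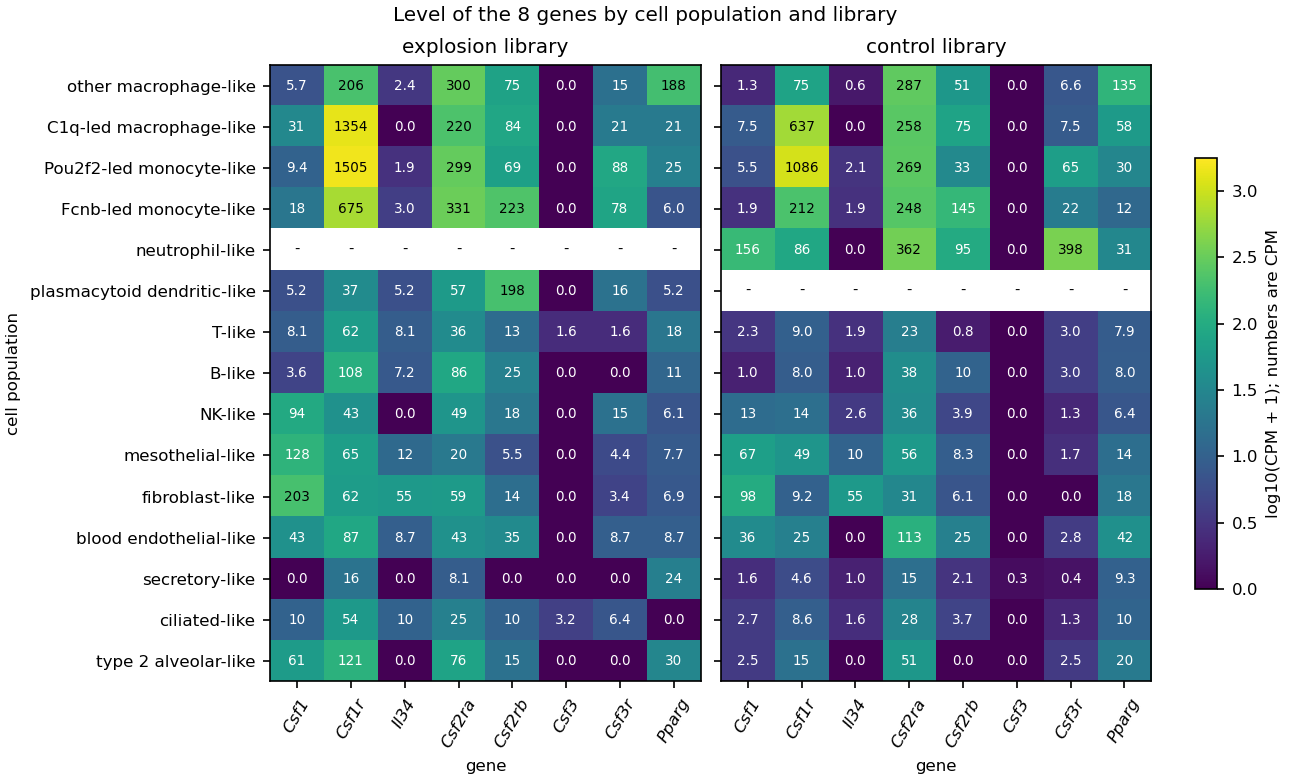
Levels of the 8 genes by cell population, explosion library on the left and control library on the right; colour shows log10(CPM + 1), numbers are CPM, and a dash marks a population with fewer than 50 cells. Csf1r was highest in Pou2f2-led monocyte-like cells (1505 and 1086 CPM), Pparg in macrophage-like cells outside the C1q-led cluster (188 and 135 CPM), and Csf1 in fibroblast-like cells (203 CPM) of the explosion library and neutrophil-like cells (156 CPM) of the control library.

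**Figure D5:**
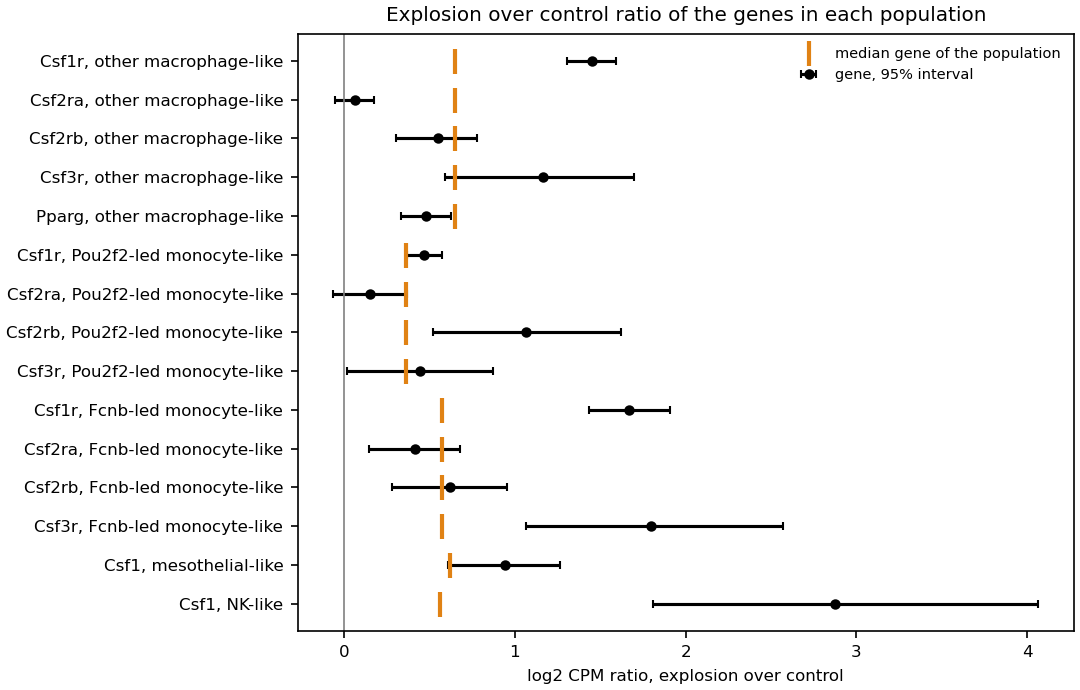
The log2 CPM ratio, explosion over control, of chosen genes and populations, with 95% intervals from counting error, beside the median gene of each population in orange. The receptor genes are shown in other macrophage-like, Pou2f2-led and Fcnb-led cells. Pparg is shown in other macrophage-like cells, and Csf1 in mesothelial-like and NK-like cells. Csf2ra in other macrophage-like cells lay near 0, with an interval of 0.962 to 1.13 on the fold scale. Csf1r in Fcnb-led monocyte-like cells (3.18-fold) and in other macrophage-like cells (2.73-fold) lay above the median gene. Fcnb-led cells here include the class II-led cells of the finer clustering.

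Genes around the axis were read from 5 lists, of which all 87 genes were found. Of the 11 related ligands and receptors, 4 had at least 30 UMIs over both libraries in macrophage-like cells and 2 of the 4 were at least 2-fold higher in the explosion library, beside the 36.3% and 7.97% given above for all genes. They were the stem cell factor gene Kitlg at 3.96-fold (2.37 to 6.30), with 21 and 133 UMIs, and the syndecan gene Sdc1 at 2.19-fold (0.854 to 4.73). The interleukin 3 receptor chain gene Il3ra was at 9.10 CPM in the explosion library and 18.1 CPM in the control library, 0.502-fold (0.306 to 0.780), and Flt3lg at 4.55 and 5.23 CPM. In monocyte-like cells 1 of 4 was higher and 0 lower, beside 25.3% and 9.6% of all genes, with Kitlg at 3.95-fold (2.19 to 7.50), and Flt3, Flt3lg and Il3ra at 1.28, 1.26 and 1.10-fold with intervals that included 1. The other members, among them Csf2, Il3, Il5, Il5ra and Kit, had too few UMIs to compare in these classes.

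Of the 28 genes that signal below these receptors all had enough UMIs in macrophage-like cells, 11 were at least 2-fold higher in the explosion library and 1 lower, beside 36.3% and 7.97% of all genes, and their median log2 ratio was 0.90 beside 0.67 over all genes. The PI3 kinase genes Pik3cd and Pik3r1 were at 3.63-fold (3.19 to 4.12) and 3.04-fold (2.67 to 3.45). The adaptor gene Tyrobp, which couples to Csf1r signalling, was at 1763 CPM in the explosion library and 4951 CPM in the control library, 2.81-fold lower (2.72 to 2.90). Grb2 was at 0.961-fold (0.883 to 1.05). In monocyte-like cells 5 of 27 were higher and 1 lower, a smaller share than the 25.3% and 9.6% of all genes, with a median of 0.72 beside 0.44. There Tyk2 was at 3.02-fold (2.29 to 4.01), Pik3cd at 2.64-fold (2.19 to 3.19), the phosphatase gene Ptpn6 at 0.803-fold (0.721 to 0.894) and Tyrobp 2.62-fold lower (2.52 to 2.72).

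Of 18 myeloid transcription factor genes 17 were compared in macrophage-like cells, of which 5 were at least 2-fold higher and 0 lower, with a median log2 ratio of 0.80, beside 36.3% of all genes higher, 7.97% lower and a median of 0.67. Maf, a regulator of macrophage identity, was at 2.79-fold (2.55 to 3.04), while Spi1 was at 0.944-fold (0.882 to 1.01) and Cebpd at 0.680-fold (0.550 to 0.832). In monocyte-like cells 6 of 17 were higher and 2 lower, with a median of 0.73, beside 25.3%, 9.6% and 0.44 over all genes. Tfec, a member of the Mitf family, was at 6.51-fold (4.36 to 10.0) and Zeb2 at 2.81-fold (2.53 to 3.11), while Bhlhe41 was 2.18-fold lower (1.20 to 4.20).

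Of 11 partners and relatives of Pparg 10 were compared in macrophage-like cells, of which 5 were at least 2-fold higher and 0 lower, with a median log2 ratio of 0.97, beside 36.3%, 7.97% and 0.67 over all genes. The coactivator gene Ppargc1b was at 3.10-fold (2.10 to 4.44) and Ppargc1a, with 4 and 36 UMIs, at 2.79-fold (0.720 to 7.77). Rxra and Rxrb, which encode dimer partners of the protein, were at 1.37-fold (1.24 to 1.51) and 1.00-fold (0.698 to 1.40). In monocyte-like cells 5 of 8 were higher and 0 lower, beside 25.3% and 9.6% of all genes, led by Ppard at 2.77-fold (1.40 to 5.72) and Med1 at 2.55-fold (2.05 to 3.18), with Rxra at 1.14-fold and Rxrb at 0.862-fold. Of 19 genes of the PPAR target and lipid list 17 were compared in macrophage-like cells, 6 higher and 1 lower, with a median of 0.78, so the share higher was close to the 36.3% of all genes. The apolipoprotein gene Apoe was at 8.31-fold (7.60 to 9.09) and the cholesterol exporter gene Abca1 at 3.38-fold (3.18 to 3.58). The fatty acid binding protein genes went the other way: Fabp4, a known target of Pparg, was at 254 CPM in the explosion library and 822 CPM in the control library, 3.23-fold lower (2.97 to 3.52), and Fabp5 at 237 and 462 CPM, 1.95-fold lower (1.79 to 2.13). Fabp4 is the leading gene of control cluster 2. In monocyte-like cells 4 of 16 were higher and 2 lower, with a median of 0.53, and here too the share higher was close to that of all genes, 25.3%. The 2 lower ones were Fabp4 and Fabp5, at 3.68-fold lower (2.59 to 5.35) and 2.56-fold lower (2.03 to 3.27), and Apoe and Scd were the highest, at 3.44-fold (2.48 to 4.84) and 3.00-fold (1.41 to 6.83). Pparg itself was at 1.35-fold in macrophage-like cells, below the median gene of the class, and at 0.795-fold (0.496 to 1.26) in monocyte-like cells.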

How the data were processed

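The authors deposited raw UMI counts, whole numbers for each gene in each barcode, from cellranger 7.1.0 per the file headers. Per the submitters' processing notes, bcl2fastq 2.20 and Cell Ranger 6.1.1 were used, and mRatBN7.2 is listed as a build beside rn6; which annotation was counted is not stated. Barcodes with at least 200 genes and at most 25% mitochondrial UMIs were kept, which removed 192 and 22 explosion and 21 and 16 control barcodes, a barcode counting under each limit it failed. The gene list names mt-Rnr1 and mt-Rnr2 alone with the mitochondrial prefix, so that share counts ribosomal RNA. Scrublet (scanpy 1.11.5) called 597 doublets (4.80%) in the explosion library and 1853 (8.79%) in the control library, which were removed.

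Cells were scaled to 10000 UMIs and logged, and 2000 variable genes without the 8 members, 30 principal components and 15 neighbours went into Leiden clustering (resolution 1, python-igraph 0.11.9) of both libraries together, with no batch integration. Naming used 228 markers for 25 classes (225 present in the data). A marker counted when its mean was at least 2-fold the mean over clusters of other classes and at least 5% of cells held a UMI; a name needed 3 markers, of which 1 among the 20 leading genes. The naming rules and the splits of monocyte-like and macrophage-like cells were settled after the clusters were seen, and the members and lists were chosen with earlier results of these data known.

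UMIs were summed per population and library and divided by the population's total. Ratios are explosion over control with exact conditional Poisson intervals (scipy 1.17.1), compared across genes where both libraries had 200 cells or more; intervals and limits cover counting error only, and a count of 0 was given the limit that 3 counts allow. In each class, genes with at least 30 UMIs over both libraries were compared, and a gene was called when its CPM ratio, with 0.5 counts added to each sum, was at least 2-fold. From each list the 2 highest and 2 lowest ratios were named; each member's 5 most alike genes were those with the highest Pearson r of log2(CPM + 10); some genes that these rules pick are not reported here. Scripts were tested on simulated data. Promoters came from a RefSeq table of GRCr8, matched by symbol.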

Additional observations from a re-analysis of the deposited data

How the results depend on the processing

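No paired analysis was possible because each group had 1 library and no test was run. Of 194 recomputed values of 18 ratios, 183 kept their direction, and of 74 for ratios of at least 2-fold all 74 kept it and 71 stayed at least 2-fold. Settings that gave no value are not in these counts, among them macrophage-like Csf1 with the B-like and T-like level subtracted. That subtraction was also not made for B-like and T-like cells themselves, so the counts do not cover it there. The ratios of at least 2-fold include Csf1r in B-like and T-like cells and Csf1 in macrophage-like cells, which was near the lymphoid level. A kept direction thus does not set a population's own RNA apart from free RNA. The cause of the changes below was not tested, except that thinning and a 500 UMI minimum leave out most shallow Pou2f2-led explosion cells. All values are log2 ratios, explosion over control, unless percent is given. Relative to the median gene, macrophage-like values were 1.02 for Csf1r, -0.62 for Csf2ra, -0.12 for Csf2rb, 0.52 for Csf3r and -0.24 for Pparg; monocyte-like values were 0.26 for Csf1r, -0.19 for Csf2ra, 0.24 for Csf2rb and 0.38 for Csf3r; mesothelial-like Csf1 was 0.32. Macrophage-like Csf1r was 1.51 with at least 500 UMIs, 1.88 as a mean over cells, 1.55 thinned and 1.45 without the C1q-led cluster. With the B-like and T-like level subtracted, an alternative chosen after seeing the data like those that leave out a cluster, macrophage-like values were 1.35 for Csf1r, -0.085 for Csf2ra, 0.28 for Csf2rb and 1.96 for Csf3r; Csf1 in macrophage-like and Csf1r in mesothelial-like cells then gave no value. Macrophage-like Pparg was 0.25 as a mean over cells. Monocyte-like Csf1r was 1.13 with doublets kept, 0.31 with at least 500 UMIs, 0.47 at resolution 2, 0.53 without secretoglobins and ribosomal RNA in the denominator, 0.57 as a mean over cells, 0.055 thinned and 0.47 without the Fcnb-led cluster. Monocyte-like Csf2ra was 0.077 with that denominator. Monocyte-like Csf2rb was 1.32 with at least 500 UMIs, 1.77 thinned and 1.06 without the Fcnb-led cluster, and Csf3r 1.22 with doublets kept, 0.26 thinned and 0.44 without that cluster. Mesothelial-like Csf1 was 1.56 with doublets kept and 1.28 thinned, and NK-like Csf1 4.30 thinned. Thinned shares of UMIs, explosion then control, were 27.0% and 36.6% for Csf1r in macrophage-like, 60.4% and 56.5% for Csf1r in monocyte-like, 51.3% and 78.2% for Csf2ra and 87.1% and 87.8% for Pparg in macrophage-like, and 50% and 35.5% for Csf1 in mesothelial-like cells. With doublets kept, macrophage-like shares were 43.1% and 71.9% for Csf2ra and 75.05% and 75.7% for Pparg, the control macrophage-like share of Csf1r was 53.3% and the explosion monocyte-like share 68.2%. Depth limits Csf3, Il34 and all values of explosion neutrophil-like cells.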

Other observations

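Clusters that could not be named also carried some of these genes. The cycling cluster 20, led by Mki67 and Top2a, had Csf2ra at 199.0 CPM (143 to 269) in 151 explosion cells and 244 CPM (223 to 267) in 221 control cells, Csf1r at 109 CPM (69.1 to 164) and 60.4 CPM (50.02 to 72.4), and Pparg at 66.3 CPM (36.3 to 111) and 104 CPM (90.6 to 120). Cluster 25, led by Il1rl1, Mcpt8 and Cpa3 and tied between the markers of type 2 innate lymphoid cells and of mast cells and basophils, had Csf1 at 22.5 CPM (2.73 to 81.4) in 179 explosion cells and 74.2 CPM (35.6 to 136) in 67 control cells, from 2 and 10 UMIs, and Pparg at 78.9 CPM (31.7 to 163) and 51.9 CPM (20.9 to 107), from 7 UMIs each. Csf2rb there was at 11.3 CPM (0.285 to 62.8) in the explosion library and 103.8 CPM (56.8 to 174) in the control library, from 1 and 14 UMIs. Cluster 16, led by Kcnj15, had 613 explosion and 42 control cells and Csf1r at 36.8 CPM (25.2 to 52.0) in the explosion library, below the B-like level of that library.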
